A study of Homo sapiens with 6 samples.

Results

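The genes described here encode the subunits of the receptors for glutamate, GABA, glycine and acetylcholine. They were read from the platform annotation by symbol (GRIA, GRIK, GRIN, GRID, GRM, GABR, GLRA, GLRB, CHRN and CHRM genes), taking rows with exactly 1 gene symbol and 1 row per symbol. This gave 66 genes of the 18417 with a row of their own, of which 64 encode subunits in 11 receptor classes. The other 2, GRIK1-AS1 and GRIK1-AS2, are antisense RNAs of a kainate receptor locus and are counted apart. RNA of neural stem cells was read on 6 Affymetrix arrays. The cells, at passage 14, came from a single line of human embryonic stem cells, SA-01. In 3 cultures, treatment began 5 h after plating and lasted 24 h, with either X5050 (100 µM) or the solvent alone (DMSO, 0.1%). X5050 is named in the title as a REST inhibitor, so the question is which receptor genes differed between the treatments. Same-numbered arrays were taken as the DMSO and X5050 sample of 1 culture.

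Ionotropic receptors are channels built from several subunits around a central pore, and the subunits present set which ions pass and how fast the channel closes. Receptors for GABA, glycine and nicotine belong to the pentameric Cys-loop family, glutamate channels are tetramers, and metabotropic glutamate and muscarinic receptors signal through G proteins. In neural precursors GABA and glycine commonly depolarise the cell, and AMPA, kainate and nicotinic receptors can appear before synapses form. REST is a repressor that binds RE1 elements, and several receptor subunit genes carry such an element.

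The letters of an RE1 element are shown because REST, which X5050 is said to inhibit, binds such elements. RefSeq promoter windows (GRCh38.p14, 250 bases before to 50 after an annotated start) were available for 50 of the 64 subunit genes, 72 windows in all. Both strands were searched for the main letters of an RE1 element, CAGCACC, then 2 letters of any kind, GGACAG, 1 letter of any kind and GCC. Each gene's closest stretch is written along the motif, with letters equal to it in capitals.
GRIA2: CAGCACCgaGGACAGcGCC
GLRB: CcGCAgCggGGACAGcGCg
GABRG3: CAGCACagcGcACAcaGCC
GRM7: CAGCACtggGGAgAGgGCa
CHRM4: CAGCtCCcgGcgCtGtGgC
GRIA2 is shown for its exact match at all 16 letters compared, GLRB, GABRG3 and GRM7 as the next closest, with 3 letters that differ, and CHRM4, with 5, as a gene known to be held down by REST. The GRIA2 stretch lies at chr4:157220388-157220406 on the minus strand, opposite to the gene. RefSeq gives GRIA2 3 starts in this table, and the stretch begins 268 and 56 bases after the first and the next of them and ends 213 bases before the third. An exact match was found in 7 of 35116 promoter windows (0.0199%), and in 1 of the 72 windows of subunit genes. Up to 3 differences were found in 4 of the 72 windows (5.56%) and in 1.29% of all windows, and up to 5 in 37.5% and 38.5%, so stretches like that of CHRM4 are common. CAGCACC was found in 9.72% of subunit gene windows and 7.75% of all, and GGACAG in 30.6% and 20.5%. These are letters in a window, not measured binding sites.

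The array gives a log2 signal per gene and no call of presence or absence. To mark genes near background, each was set against 341 olfactory receptor genes, which are not expected to be transcribed in these cells. The 95th percentile of their mean signal with DMSO was 5.01, called the reference here, and their 99th was 5.7. Probe sets bind with different strength, so a signal is not read as more or less RNA than another gene's.

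Of the 64 subunit genes 44 were above the reference with DMSO, and 20 were at or under it, as were both antisense RNAs. This share of the 66 genes (66.7%) was below the 74.7% of all tested probe sets. Only 24 of the 64 lay above the 99th percentile of the olfactory receptor genes. By class, all 4 AMPA genes, 4 of 5 kainate, 5 of 7 NMDA and all 7 metabotropic glutamate genes were above the reference, together with GRID1, a delta receptor. Of the GABA-A genes 5 of 12 were above it, and of the GABA rho genes 2 of 3. The counts were 2 of 5 for glycine, 5 of 5 for muscle-type nicotinic, 7 of 10 for neuronal nicotinic and 2 of 5 for muscarinic genes. The mean DMSO signals of the AMPA genes ran from 6.22 to 9.54, those of the neuronal nicotinic genes from 3.35 to 9.58 and those of the GABA-A genes from 3.24 to 7.44.

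**Figure D1:**
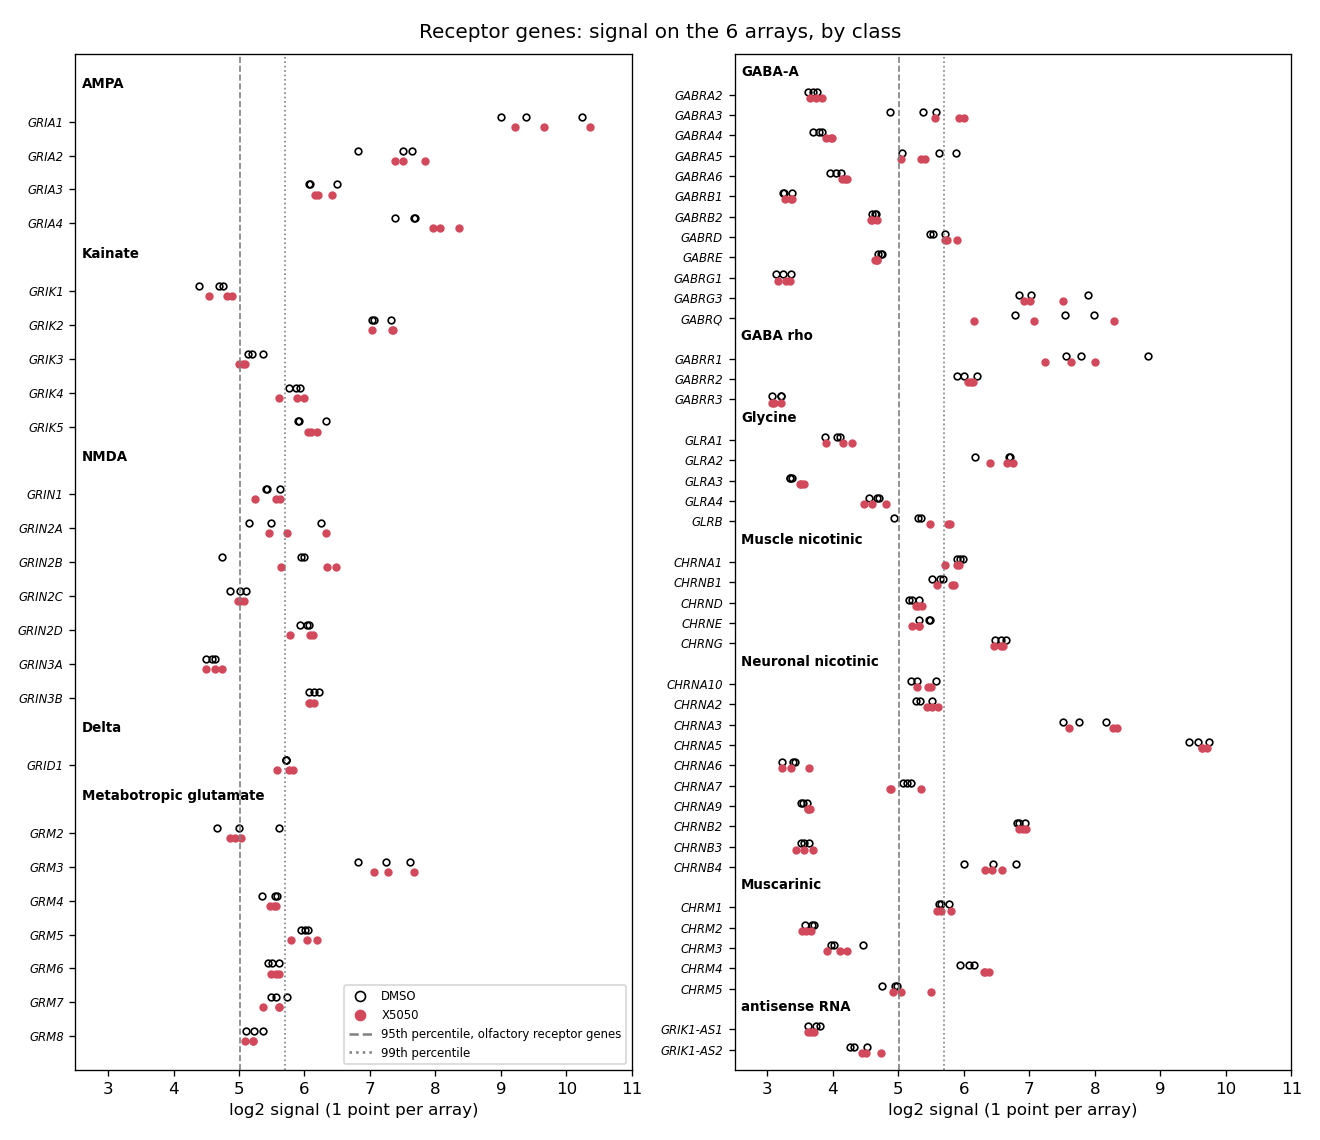
Log2 signal of the 66 genes on each of the 6 arrays, grouped by receptor class, with DMSO as open and X5050 as filled points. Dashed and dotted lines mark the 95th and 99th percentile of the olfactory receptor genes (5.01 and 5.7). GRIA1 and CHRNA5 lie near 9 to 10 on all arrays, while most points of the metabotropic glutamate and muscle-type nicotinic genes lie close to the lines.

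The row with the highest signal in each class is given here array by array or by its mean. GRIA1, an AMPA receptor subunit, read 10.23, 9.39 and 9.0 with DMSO in cultures 1, 2 and 3 and 10.36, 9.22 and 9.66 with X5050. CHRNA5, an accessory subunit of neuronal nicotinic receptors, read 9.73, 9.58 and 9.44 with DMSO and 9.71, 9.64 and 9.64 with X5050. In both genes the treatments overlapped. GABRR1, a subunit of the GABA rho receptors best known from the retina, read 7.57, 7.79 and 8.80 with DMSO, GABRQ, the theta subunit of GABA-A receptors, 7.99, 7.54 and 6.79, and GRM3, a metabotropic receptor known from glia, 6.81, 7.61 and 7.25. The kainate subunit GRIK2 read 7.07, 7.03 and 7.32, and GLRA2, the glycine receptor alpha subunit of the immature nervous system, 6.18, 6.70 and 6.70. All of these were above the 99th percentile of the olfactory receptor genes. The top rows of the other classes were CHRNG, the fetal muscle subunit, the NMDA subunit GRIN3B, the muscarinic receptor CHRM4 and GRID1. Their DMSO means were 6.56, 6.14, 6.06 and 5.72, also above the 99th percentile, GRID1 narrowly. No subunit of the muscle-type class had a mean over 6.56, and of 7 skeletal muscle markers 4 were above the reference, the brightest of them the actin gene ACTA1 at 6.55 and MYOD1 below it at 4.74.

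The label of the cells was set beside marker genes. All 10 neural stem cell markers were above the reference, with DMSO means from 6.43 for SOX1 to 12.07 for FABP7. All 9 measured neuronal markers were above it too, among them STMN2 at 12.22, MAP2 at 10.82 and DCX at 9.71, so receptor signals come from cultures that also held transcripts of young neurons. All 10 mesenchymal markers were above the reference, against 3 of 6 of the oligodendrocyte lineage and 5 of 6 of astroglia. All 5 measured neural crest genes and all 2 measured pluripotency genes were above it as well. Since 74.7% of all tested probe sets were above the reference, these counts alone do not tell cell types apart. Signals are of bulk RNA, in which more cells of a type and more RNA per cell cannot be told apart. Array medians lay between 5.68 and 5.75, any 2 arrays correlated at 0.984 to 0.993, and no array stood apart.

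No receptor gene changed at the threshold when X5050 was compared with DMSO. In the paired limma fit (replicate number as a block, Benjamini-Hochberg adjustment over 19460 probe sets) 0 of the 66 genes had an adjusted p under 0.05, where 0.498% of all tested probe sets did (97 of them, 0.19% higher and 0.308% lower). With an unadjusted p below 0.05 there were 8 receptor genes (12.1%), of which 6 were higher and 2 lower, beside 14.5% of all probe sets, 7.06% higher and 7.48% lower. Without the replicate block 0 of the 66 passed, 4 had an unadjusted p under 0.05, all higher (beside 4.5% of all probe sets), and 0 of all probe sets passed. With a culture left out the paired fit called 2 receptor genes without culture 1 (GRIN2B and GABRQ), 2 without culture 2 (GRIA4 and GABRA3) and 0 without culture 3, and 346, 81 and 0 of all probe sets. Such calls rest on fewer cultures and are less certain than those of the main fit. The median log2 change, X5050 minus DMSO, was 0.040 over the 66 genes and 0.0092 over all probe sets, with 40 receptor genes above 0 and 26 below, or 60.6% above 0 beside 52.7% of all probe sets. Among the 341 olfactory receptor genes 58.1% were above 0, with a median of 0.026. The share above 0 was 59.1% for subunit genes above the reference and 65% for those at or under it. By culture the median of the 66 was 0.021, 0.082 and 0.020. For all 66 genes the 95% interval of the change lay within 1 log2 unit of 0, which is a doubling, and for 55 of them within 0.5. Of all 19460 probe sets these intervals held 19349 and 16997, so narrow intervals were general in this fit. The 66 include 22 genes at or under the reference, and RMA compresses changes of dim probe sets. An adjusted p above the threshold with 3 cultures does not show that a gene was at the same level in both treatments.

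The 3 X5050 values lay wholly above the 3 DMSO values for 7 receptor genes and wholly below for 2. This is 10.6% and 3.03% of the 66, or 13.6% together, beside 7.51%, 7.41% and 14.9% of all probe sets. A change of 1 sign in all 3 cultures was seen in 19 genes (28.8%), 13 higher (19.7%) and 6 lower (9.09%), beside 35.5% of all probe sets, 18% higher and 17.5% lower. These shares were not tested against the background. The 7 were GRIA4, GLRB, CHRM4, GABRA4, GABRA6, GLRA3 and CHRNA9 and the 2 were GRIK3 and GABRE, and 5 of these 9 lay under the reference.

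Among glutamate receptor channels, 4 of 4 AMPA genes had a mean change above 0, but their median by culture was 0.34, -0.11 and 0.50. The 17 ionotropic glutamate genes had a median of 0.052 with 12 above 0 (70.6%, beside 52.7% of all probe sets). GRIA4, an AMPA subunit with fast kinetics, read 7.38, 7.69 and 7.68 with DMSO and 8.06, 7.97 and 8.37 with X5050. All X5050 values lay above all DMSO values. The change was 0.55 (1.46-fold, paired SE 0.11, n = 3 cultures, limma adjusted p = 0.0764), and it was 0.68, 0.28 and 0.69 by culture. GRIN2B, the NMDA subunit that prevails before birth and binds glutamate, read 5.99, 5.94 and 4.73 with DMSO and 6.34, 6.47 and 5.64 with X5050. Each culture was higher with X5050, but culture 3 with X5050 lay below cultures 1 and 2 with DMSO, so the groups overlapped. Its change was 0.60 (1.51-fold, paired SE 0.12, limma adjusted p = 0.0764 with the replicate block and 0.689 without it).

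The AMPA subunit GRIA2, which makes these channels nearly impermeable to calcium and whose RE1 match is shown above, read 6.82, 7.64 and 7.50 with DMSO and 7.38, 7.51 and 7.84 with X5050. It was higher in cultures 1 and 3 (0.56 and 0.34) and not in culture 2 (-0.14), and the groups overlapped. Its mean change was 0.26 (95% interval -0.050 to 0.56, limma adjusted p = 0.441). GRIA1 stood at 0.20 (95% interval -0.13 to 0.54), with 0.12, -0.17 and 0.66 by culture, and at -0.024 without culture 3. GRIA3 stood at 0.043.

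In the kainate class GRIK3 was the member with the smallest p, at 5.20, 5.14 and 5.36 with DMSO and 5.09, 5.00 and 5.07 with X5050. All X5050 values lay below the DMSO values, close to the reference, with a change of -0.18 (SE 0.090, limma adjusted p = 0.422). GRIK2 stood at 0.10. GRIK1, under the reference, stood at 0.13, with 0.15, 0.12 and 0.13 by culture, and the antisense RNAs at its locus stood at -0.058 for GRIK1-AS1 and 0.19 for GRIK1-AS2. Of the NMDA genes other than GRIN2B, the obligatory subunit GRIN1 stood at -0.0097 (95% interval -0.25 to 0.23), GRIN2C at 0.035 and GRIN3B at -0.043. GRIN2A stood at 0.21, with 0.57 in culture 2 and at most 0.076 in the others. The 7 metabotropic glutamate genes ran from -0.14 for GRM2 to 0.11 for GRM3, and none had an unadjusted p under 0.05. GRM2 differed in sign between cultures, at 0.36 in culture 1 and -0.66 in culture 3.

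**Figure D2:**
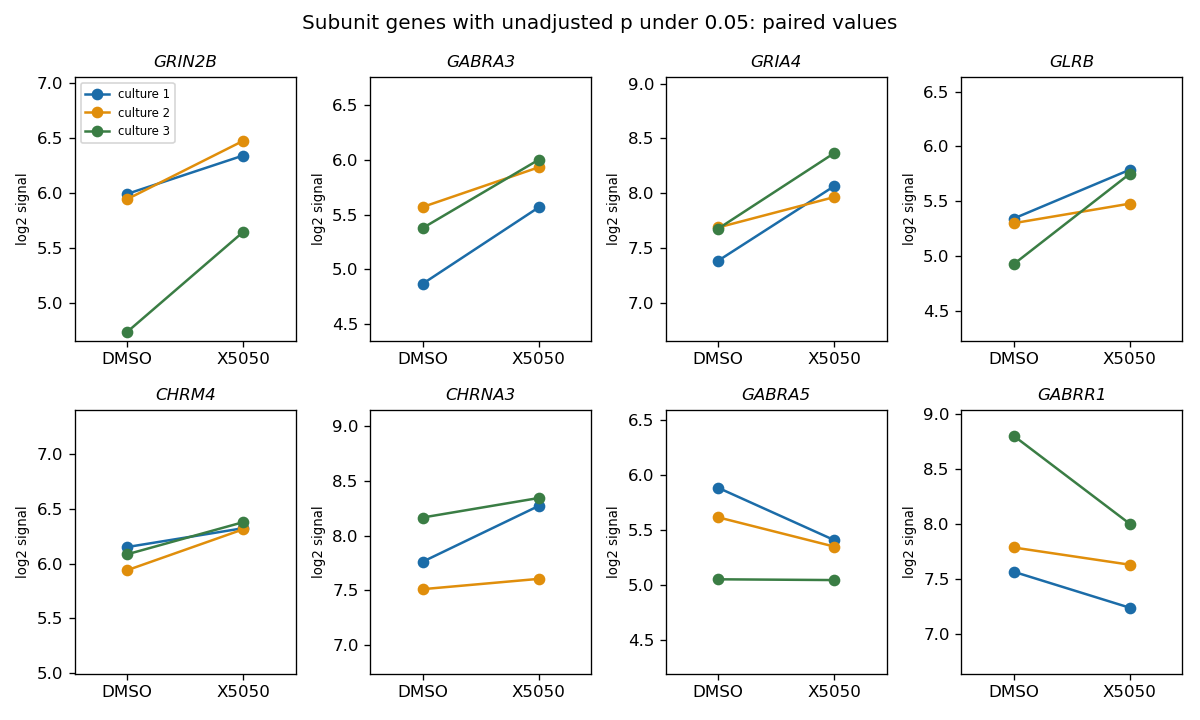
Log2 signal with DMSO and with X5050 in each of the 3 cultures, joined by culture, for the 8 subunit genes with an unadjusted p under 0.05 in the paired limma fit. All panels span the same 2.4 log2 units. All lines of the 6 genes GRIN2B, GABRA3, GRIA4, GLRB, CHRM4 and CHRNA3 slope up and those of GABRR1 down, and that of GABRA5 is flat in culture 3.

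Genes for GABA and glycine receptors held the smallest p-value of the 66 and lay on both sides of 0. Of these 20 genes 12 were above it (60%, beside 52.7% of all probe sets), with a median of 0.050. GABRA3, an alpha subunit of GABA-A receptors common in the embryonic brain, read 4.87, 5.57 and 5.38 with DMSO and 5.57, 5.93 and 6.00 with X5050. Every culture was higher with X5050, while X5050 in culture 1 and DMSO in culture 2 lay side by side. The change was 0.56 (1.48-fold, paired SE 0.099, 95% interval 0.33 to 0.79, limma adjusted p = 0.0593 with the replicate block and 0.459 without it).

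GLRB, which anchors glycine receptors to the scaffold protein gephyrin, read 5.34, 5.30 and 4.93 with DMSO and 5.79, 5.48 and 5.75 with X5050. The groups did not overlap, and the change was 0.48 (1.40-fold, paired SE 0.13, limma adjusted p = 0.135). By culture it was 0.45, 0.18 and 0.82. GPHN, the gene for gephyrin itself, stood at 0.25 (SE 0.098, limma adjusted p = 0.289). Among the glycine receptor alpha subunits GLRA3 read 3.37, 3.34 and 3.35 with DMSO and 3.56, 3.50 and 3.52 with X5050. The groups did not overlap, but all 6 values were far under the reference, and the change was 0.17 (SE 0.086, limma adjusted p = 0.417). GLRA1, also under it, stood at 0.093 and GLRA2 at 0.078.

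GABRR1 read 7.57, 7.79 and 8.80 with DMSO and 7.24, 7.63 and 8.0 with X5050. Each culture was lower with X5050 and the groups overlapped, since culture 3 was the highest in both. The change was -0.43 (1.35-fold lower, paired SE 0.13, limma adjusted p = 0.172 with the replicate block and 0.778 without it). It was -0.33, -0.16 and -0.80 by culture, and the mean was -0.24 without culture 3. The lowest mean of the 66 was that of GABRR1 with all cultures or without culture 2, of GABRQ without culture 1 and of GABRA5 without culture 3. The rho subunit GABRR2, encoded next to it, stood at 0.071. GABRA5, an alpha subunit of extrasynaptic receptors, read 5.89, 5.62 and 5.05 with DMSO and 5.41, 5.35 and 5.04 with X5050. It was lower in cultures 1 and 2 (-0.48 and -0.27) and level in culture 3 (-0.0071), with a mean of -0.25 (SE 0.11, limma adjusted p = 0.342).

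GABRQ differed between cultures in direction, at 0.30 in culture 1, -0.46 in culture 2 and -0.63 in culture 3, with a mean of -0.27 (95% interval -0.64 to 0.11). Without culture 1 it stood at -0.55 with a limma adjusted p of 0.0422. GABRD, the delta subunit of extrasynaptic receptors, stood at 0.21 (SE 0.10, limma adjusted p = 0.402), with 0.36, 0.26 and -0.0010 by culture and a mean of 0.13 without culture 1 and 0.31 without culture 3. GABRG3, a gamma subunit, stood at -0.10. Under the reference, GABRA4 was higher in all cultures (0.16, 0.18 and 0.21) with separate groups and a limma adjusted p of 0.385, and GABRE lower in all (-0.063, -0.11 and -0.024) with separate groups and an adjusted p of 0.814.

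**Figure D3:**
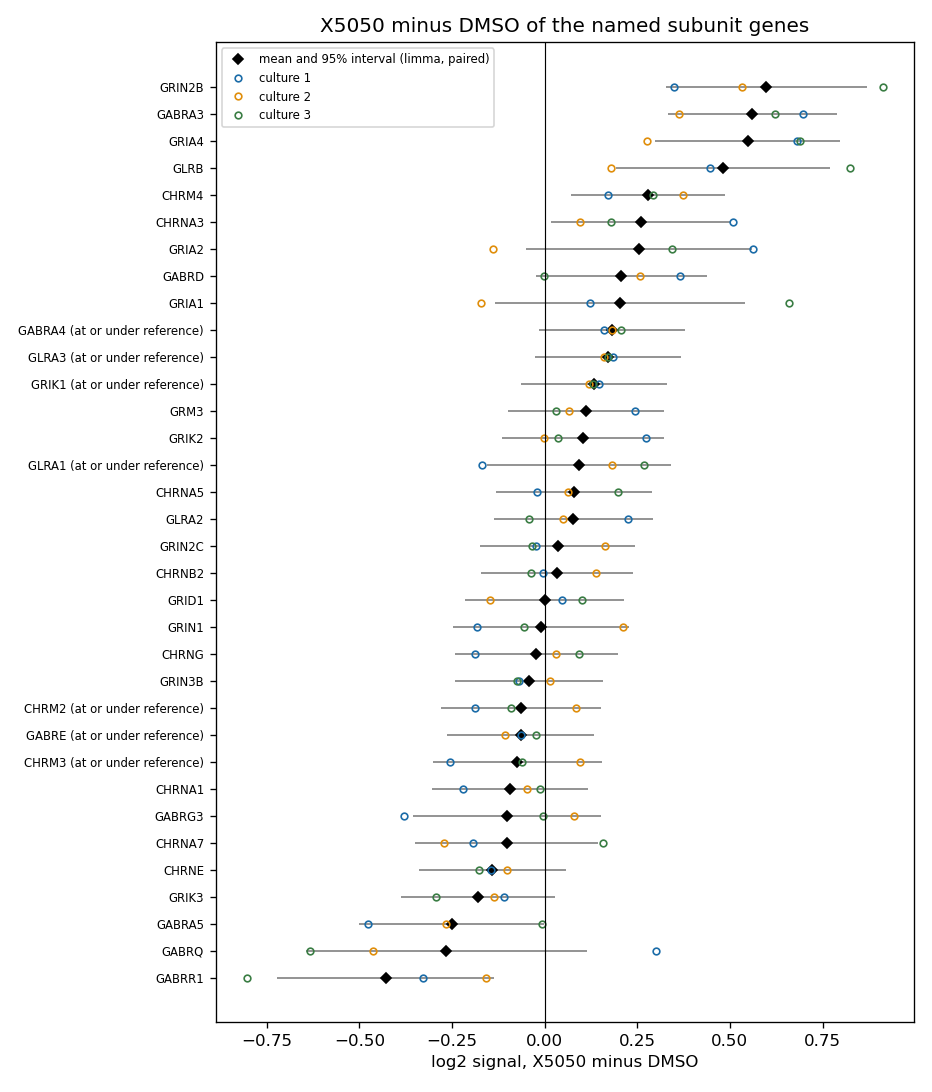
Change in log2 signal, X5050 minus DMSO, of the 34 subunit genes given value by value, ordered by mean change. Diamonds and bars give the mean with its 95% interval from the paired limma fit, and circles give the 3 cultures. The means run from -0.43 for GABRR1 to 0.60 for GRIN2B. The intervals of the 6 highest means, and on the lower side those of GABRR1 and GABRA5, do not reach 0. No adjusted p was under 0.05.

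Among acetylcholine receptor genes 12 of 20 were above 0 (60%, beside 52.7% of all probe sets), with a median of 0.048. CHRM4, a muscarinic receptor coupled to inhibition of cyclic AMP, read 6.15, 5.94 and 6.08 with DMSO and 6.32, 6.31 and 6.38 with X5050. All X5050 values lay above the DMSO values, at a change of 0.28 (1.21-fold, SE 0.090, limma adjusted p = 0.199). The other muscarinic genes ran from -0.073 for CHRM3 to 0.26 for CHRM5, whose mean rests on culture 2 (0.74, against 0.063 and -0.032). CHRM2, CHRM3 and CHRM5 were under the reference with DMSO. CHRNA3, the ligand-binding subunit of ganglionic nicotinic receptors, read 7.76, 7.51 and 8.16 with DMSO and 8.27, 7.60 and 8.34 with X5050. All cultures were higher (0.51, 0.094 and 0.18) and the groups overlapped, with a mean change of 0.26 (SE 0.11, limma adjusted p = 0.305).

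CHRNA5 and CHRNB4, which flank CHRNA3 in a cluster of nicotinic genes on chromosome 15, stood at 0.079 and 0.037. CHRNB2, the common beta subunit of brain nicotinic receptors, stood at 0.033 (95% interval -0.17 to 0.24). CHRNA7, which forms receptors on its own, stood at -0.10. Its value is uncertain because CHRFAM7A is a partial copy of the gene, and the row annotated to both was left out. That row, also annotated to ULK4P1, read 7.63, 7.81 and 7.53 with DMSO and 7.48, 8.11 and 7.41 with X5050. Muscle-type subunits ran from -0.14 for CHRNE to 0.14 for CHRNB1, with CHRNA1 at -0.093 and CHRNG at -0.022. None of these 5 had an unadjusted p under 0.05.

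A list of 12 receptor genes known for RE1 elements had been written down from memory, and 10 were measured. In the promoter windows GRIA2 had an exact match, while GRIK3, GRIN2B and CHRM4 differed at 5 letters. CHRNB2, CHRNA7, GLRA1 and GLRA3 differed at 6. No window was available for GRIN1 and GRIN2C. Up to 5 differences were found in 38.5% of all windows and up to 6 in 80.5%. The list was put together with earlier values of CHRM4 and GLRA3 known, so it is not independent evidence of a direction. Of the 10 genes 0 changed at the threshold, and 7 were above 0 and 3 below (70% above, beside 52.7% of all probe sets). Their median was 0.064, beside 0.0092 for all probe sets. GRIN2B and CHRM4 had an unadjusted p under 0.05. The members were GRIA2, GRIN1, GRIN2B, GRIN2C, GRIK3, CHRM4, CHRNB2, CHRNA7, GLRA1 and GLRA3, all given above. Their medians by culture were -0.014, 0.16 and 0.16. No list of REST targets outside the receptors was read here, and whether the marker genes carry RE1 elements was not examined.

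Receptor genes that lie side by side on a chromosome, by the RefSeq gene order, did not share a direction throughout. GLRB and GRIA2, neighbours on chromosome 4, stood at 0.48 and 0.26. On the X chromosome GABRA3 stood at 0.56 and its neighbour GABRQ at -0.27, with GABRE nearby at -0.065. GABRR1 and GABRR2 on chromosome 6 stood at -0.43 and 0.071. The chromosome 4 group of GABRG1, GABRA2, GABRA4 and GABRB1 was under the reference throughout, at 0.020, 0.050, 0.18 and 0.050. The differences between neighbours were not tested.

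Some receptor genes differed between the 3 replicate numbers, taken here as cultures, with the treatment as a term in the same fit. For pairing, the sample titles give only a replicate number. A difference between cultures can therefore not be told apart from anything else that same-numbered arrays shared. In a limma test of the replicate block, chosen after the data were seen, 7 receptor genes (10.6%) differed between cultures at an adjusted p under 0.05, beside 2.93% of all probe sets, and 16 (24.2%) at an unadjusted p under 0.05, beside 15.6%. They were GRIA1, GRIN2A, GRIN2B, GRM3, GABRG3, GABRQ and GABRR1. The count was 4 without culture 1, 8 without culture 2 and 3 without culture 3, and 4 after another quantile normalization. The mean of the 2 arrays of a culture spanned 1.67 for GABRQ, 1.02 for GRIN2B, 1.0 for GABRR1 and 0.99 for GRIA1.

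GABRQ was highest in culture 1 (7.99 and 8.29), lower in culture 2 (7.54 and 7.07) and lowest in culture 3 (6.79 and 6.15), with DMSO given first. GABRG3 and GRIN2A were also highest in culture 1, GABRG3 at 7.89 and 7.51 and GRIN2A at 6.25 and 6.32. GRIN2B was lowest in culture 3 and GABRR1 highest there. Cultures differed too in mesenchymal markers, of which 8 of 10 passed the same test, and in 3 of 9 neuronal markers. The part of these markers in the receptor differences was not tested.

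**Figure D4:**
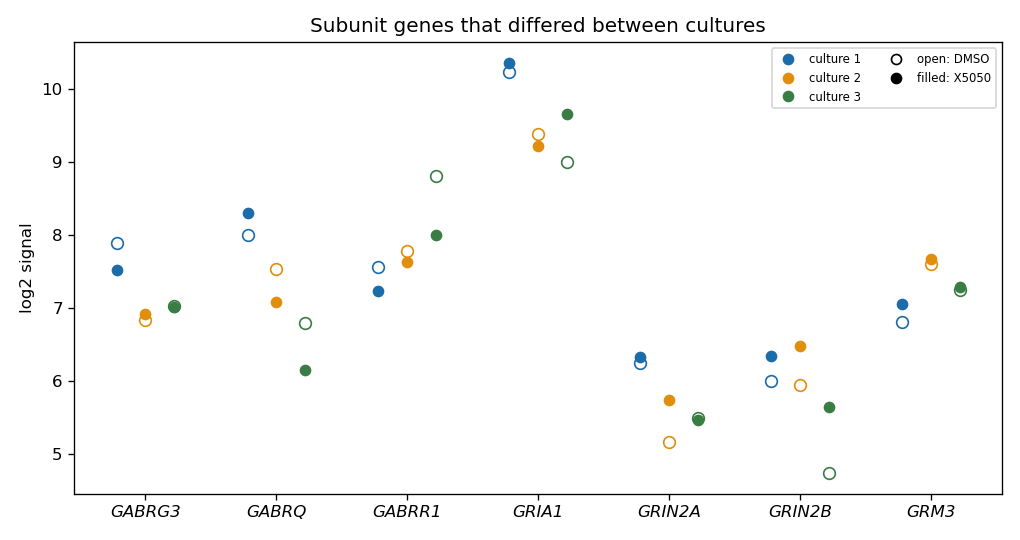
Log2 signal of the 7 receptor genes that differed between cultures at an adjusted p under 0.05, by culture, with DMSO as open and X5050 as filled points. Within most genes the 2 points of a culture lie closer together than the cultures do, for example GABRQ near 8 in culture 1 and between 6.15 and 6.79 in culture 3.

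Genes that work beside the receptors were read from lists written down with the design. Of 38 measured auxiliary and anchoring proteins 0 changed at the threshold in the paired limma fit. Of these genes 29 were above 0 and 9 below (76.3% above, beside 52.7% of all probe sets), and the median was 0.077. The share above 0 was not tested against the background. Those with the smallest p were NETO1, which associates with kainate receptors (0.40, SE 0.099, limma adjusted p = 0.118), and CACNG7, a relative of the AMPA receptor auxiliary subunit stargazin (0.36, SE 0.095, limma adjusted p = 0.139). SHISA9, which binds AMPA receptors, stood at -0.32 (SE 0.10, limma adjusted p = 0.187). The X5050 values lay wholly above those of DMSO for 4 of the 38, NETO2, SHISA6, CACNG7 and SHANK1, and wholly below for SHISA9, which is 13.2% beside 14.9% of all probe sets. Of 17 genes for transmitter synthesis and transport 0 passed, 15 were above 0 (88.2%, not tested either) and the median was 0.088. The glycine transporter SLC6A5 stood at 0.37 (SE 0.091, limma adjusted p = 0.122) and the vesicular glutamate transporter SLC17A6 also at 0.37, with 0.16, -0.052 and 0.98 by culture and a mean of 0.056 without culture 3. The GABA-B receptor genes, which the symbol rule did not take, stood at 0.11 for GABBR1 and -0.39 for GABBR2 (limma adjusted p = 0.210). Without culture 1 GABBR2 stood at -0.56 (limma adjusted p = 0.0446).

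Of the marker lists, 0 of the 9 neuronal and 0 of the 10 neural stem cell markers passed in the same fit, with medians of -0.085 and -0.14. The summed log2 signal of the 9 neuronal markers was 79.2 to 82.1 with DMSO and 78.9 to 80.8 with X5050. Mesenchymal markers were lower with X5050 in 9 of 10 genes (median -0.23, summed signal 71.4 to 85.3 with DMSO and 67.2 to 79.9 with X5050). LUM, a matrix protein, fell by 1.09 (limma adjusted p = 0.0386), and GJA1, a gap junction protein of astroglia, fell by 0.61 (adjusted p = 0.0444). Without the replicate block or without culture 3 neither passed, as 0 of all probe sets did, and GJA1 did not without culture 2 (adjusted p = 0.0775). Of the 6 astroglial markers 1 passed, GJA1, and 4 had means above 0, S100B at 0.20, ALDH1L1 at 0.19, AQP4 at 0.15 and GFAP at 0.012, with a median of 0.082 for the list. Of 5 neural crest genes 0 passed, with the factors TFAP2B at 0.56 and SNAI2 at -0.54, and of 2 pluripotency genes 0 passed. The part of these shifts in the receptor values was not tested.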

How the data were processed

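Total RNA (100 ng) was labelled by the Affymetrix whole-transcript protocol, per the labels' protocols. Signals were deposited on the log2 scale, 1 per probe set and array, and RMA and Partek are named in the submitters' processing notes. Versions, settings and annotation build: not given in the sources used here. RMA compresses changes of dim probe sets.

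The comparison used limma 3.58.1 (R 4.3.3; lmFit, eBayes, two-sided) on all 19460 probe sets with 1 gene symbol, with the replicate number as a block (2 residual degrees of freedom). The fit without it is an alternative. Paired fits with a culture left out have fewer residual degrees of freedom still. Their p-values therefore lean more on the variance that limma shares across genes. After group means were subtracted, arrays sharing a number correlated at 0.365, 0.297 and 0.255 and the others at -0.236 to -0.052, so pairing by number was accepted. A permutation test of 3 against 3 arrays cannot go below 0.1. The number of arrays limits precision. The fit was tested on simulated data. All 66 symbols matched RefSeq (GRCh38.p14) by Entrez identifier.

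Given value by value were, above the reference, the 8 subunit genes of smallest p in each direction, 3 in each direction at or under it, the brightest of each class and the RE1 list. GRIA3, CHRNB4, CHRM5, GRM2, GRIN2A, GABRR2, CHRNB1, GABRG1, GABRA2, GABRB1, GABRA6, CHRNA9 and the antisense RNAs were added after their values were seen. Members and lists were chosen with earlier results of these data known.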

Additional observations from a re-analysis of the deposited data

How the results depend on the processing

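The count of 0 receptor genes past the threshold held without the replicate block, after another quantile normalization, with arrays centred on their medians and with the median of a symbol's probe sets (each gene had 1). It was 1 when only probe sets at or above the reference were tested (GABRA3, adjusted p = 0.0494) and 2 with a variance trend in limma (GRIA4 and GABRA3, adjusted p = 0.0444 and 0.0442). It ranged from 0 to 2 with a culture left out: GRIN2B and GABRQ passed without culture 1 (limma adjusted p = 0.0186 and 0.0422), GRIA4 and GABRA3 without culture 2 (0.0464 and 0.0494). With the replicate block 97 of all probe sets passed, without it 0, after quantile normalization 32, with the trend 274, and from 0 to 346 with a culture left out (0 without culture 3, 346 without culture 1). The replicate block changed no call of a receptor gene. Testing only rows at or above the reference left 4 genes with separate groups and 12 of 1 sign in all cultures, from 9 and 19. These were 8.7% and 26.1% of the 46 receptor genes kept, beside 16.9% and 38.9% of all probe sets kept. Before this filter the shares were 13.6% and 28.8% of the 66, beside 14.9% and 35.5% of all probe sets. The median change of the receptor genes was 0.040, 0.021 with centred arrays, and ranged from 0.023 to 0.060 with a culture left out. Genes above the reference numbered 24 against the 99th percentile and 14 against the median of all tested probe sets. Genes that differed between cultures numbered 4 after quantile normalization and from 3 to 8 with a culture left out (3 without culture 3, 4 without culture 1); the cause was not tested. GRID1 stood at -0.019 after quantile normalization and -0.018 with centred arrays. With a culture left out the sign turned for GRIN1 (-0.12 to 0.077), GRID1 (-0.050 to 0.074), GABRG3 (-0.19 to 0.037), CHRNG (-0.079 to 0.061), CHRM3 (-0.16 to 0.017), GRIN2C (-0.029 to 0.069), CHRNB2 (-0.020 to 0.068) and GRIA1 (-0.024 to 0.39). Centring moved the share above 0 from 60.6% to 59.1% for receptor genes and from 52.7% to 47% for all probe sets. Nearness to background limits the 20 subunit genes at or under the reference. It also limits others, among them GABRA3, GRIN2B and GLRB, whose DMSO means lay under the 99th percentile of the olfactory receptor genes.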
